A study of Saccharomyces cerevisiae with 16 samples.

Results

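Transcript abundance in stationary-phase yeast was set against that in the log phase of the same culture, from the reads of the mock-treated natural RNA libraries. The genome was divided into 500-nt bins, the rDNA window on chromosome 12 was left out, and each library was scaled to its total over the bins. Of 23509 bins with reads, 10342 had 50 or more reads over both libraries and were the members described here. The cells were the haploid strain BY4741 in rich medium at 30 °C, and they were harvested at a labelled optical density of 4 for stationary phase and 0.8 for log phase. RNA went through 2 rounds of poly(A) selection and was sequenced by PSI-seq, in which a read marks the position where reverse transcription stopped. CMCT, a carbodiimide that blocks reverse transcription at pseudouridine, was added to some libraries (+CMCT) and left out of others (−CMCT, mock). A second RNA, made by in vitro transcription (IVT) after amplification of total RNA, carries no modifications and served as the check. The −CMCT and +CMCT libraries of a sample were split from 1 lot of fragmented RNA, and stationary-phase cells were grown on from the log-phase culture they are set against, so libraries of 1 condition are not replicates of it. With 1 library a side there was no replicate and no test of the main ratio, so intervals are exact 95% intervals of the ratio of the counts and cover counting error only.

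Yeast in glucose medium first ferments glucose to ethanol and then, once glucose is used up, turns to respiration of the ethanol and acetate it made. In growing cells a large part of transcription serves ribosome production, and nutrient-sensing kinases such as protein kinase A and TOR hold stress genes low. As nutrients run out, genes of respiration, of the glyoxylate cycle, of storage carbohydrates and of stress defence are known to be turned on while those of ribosomes are turned down. A read share of a bulk sample is relative: a lower share of 1 transcript cannot be told apart from a higher share of others, nor fewer expressing cells from less RNA per cell.

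The stationary-phase mock library held 1078680 reads over the bins, against 3569023 in the log-phase mock library of the same culture, and the IVT mock libraries held 5420104 in stationary phase and 2366685 in log phase. Levels are given as RPM, a gene's reads per 1000000 reads over the bins, and are not corrected for length. LEU2 and MET17, which BY4741 lacks, had 0 reads in all 4 of these libraries, where a count of 0 allows up to 3 reads. HIS3, which carries a partial deletion in BY4741, had 55 reads in the stationary-phase natural library and 373 in the log-phase one, so it is no check of the strain here, and URA3 had no listed reads. The pheromone receptor of MATa cells, STE2, had 85.3 RPM in stationary phase and 486 in log phase, and the 7 MATa markers summed to 305 RPM in stationary phase and 1082 in log phase. The MATα markers summed to 56.6 RPM in stationary phase and 24.4 RPM in log phase. A further natural mock library is labelled log phase, from the culture that was later heat shocked, and it stood apart from its label. It held 16013 RPM of HSP26, a small heat shock protein, against 195 in the log-phase library used here, while ribosomal protein genes summed to 32619 RPM in it, against 231423. The main ratio does not rest on that library, and results that use it are given separately.

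The 4 stationary-phase libraries differed from every log-phase library in where reads lay along the coding region. Over genes of 1000 to 2500 nt, a median of 60.8% of a gene's reads lay in the last 20% of the coding region in the stationary-phase mock library (1981 genes), against 21.3% in the log-phase mock library (2450 genes). The IVT mock libraries gave 59.3% and 26.4%, and the +CMCT natural libraries 60.7% and 22.3%. More reads lay past the middle of the coding region than before it in 95.8% of genes in stationary phase and in 60.6% in log phase. Coverage in the stationary-phase RNA was concentrated at the 3′ ends of genes, in natural and IVT RNA alike, and in log phase it was nearly even in natural RNA. Its part in the ratio of a single gene was not tested. Beside ratios over whole genes, ratios over the last 300 nt of each gene are therefore given, centred on their median over genes, which was 1.06 on the log2 scale before centring.

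**Figure D1:**
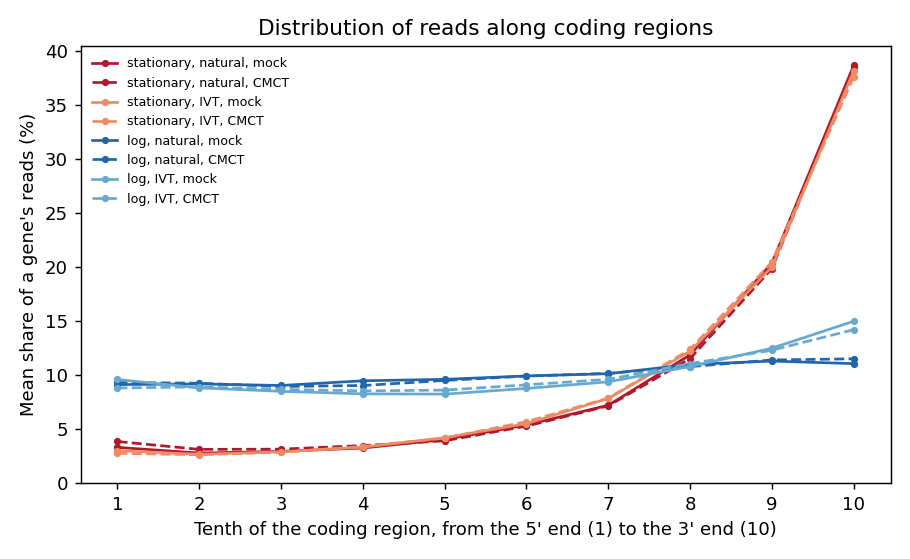
Mean share of a gene's reads (%) in each of 10 equal segments of the coding region, from the 5′ end to the 3′ end, over genes of 1000 to 2500 nt with at least 20 reads in the library; each line is 1 of the 8 libraries of the culture (solid, mock; dashed, +CMCT). The 4 stationary-phase lines climb steeply in the last segments and the 4 log-phase lines stay close to flat, with a small climb at the 3′ end in IVT RNA.

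Among the 10342 bins, 3555 (34.4%) were at least 2-fold higher in stationary phase and 3740 (36.2%) were at least 2-fold lower. The log2 ratio, with 0.5 reads added to each count, had a median of −0.01 and an SD of 2.43 over bins, and the 5th and 95th percentiles were −4.08 and 3.63. Past 8-fold lay 887 bins higher in stationary phase (8.58%) and 1283 lower (12.4%). The IVT libraries gave 3622 bins higher (35%) and 3085 lower (29.8%), and 2997 bins were past 2-fold higher and 2827 lower in both natural and IVT RNA. Those shared bins were 29% and 27.3% of all. Opposite directions past 2-fold were seen in 36 bins (0.348%), of which 7 were higher in natural RNA and lower in IVT RNA (0.0677%) and 29 the reverse (0.28%). In +CMCT natural RNA 3191 bins were higher (30.9%) and 4068 lower (39.3%), and in +CMCT IVT RNA 3509 (33.9%) and 3173 (30.7%). In all 4 library pairs 2579 bins were higher (24.9%) and 2589 lower (25%). Across bins the natural and IVT log2 ratios had a Pearson correlation of 0.90, and the mock and +CMCT natural ratios 0.95; bins of 1 gene share their transcript and all pairs share the RNA, so these are descriptions. The 128 bins with exactly 50 reads had a median log2 ratio of −0.60, and the 148 bins with 49 reads, which were left out, −0.19.

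The direction of a bin followed its place in the gene. Of bins that overlapped 1 protein-coding gene, those with their middle within 250 nt upstream of the gene's end were at least 2-fold higher in stationary phase in 1062 of 1793 cases and lower in 144, with a median log2 ratio of 1.38. Between 1000 and 1500 nt upstream of the end, 69 of 1060 bins were higher and 810 lower, with a median of −2.49. The IVT medians at the same distances were 1.23 and −1.89. Bins just past the end, with their middle up to 250 nt downstream, had a median of 1.89, with 488 of 667 higher. Of the 1110 genes with 3 or more bins of their own, 428 held bins past 2-fold in both directions, 28 had all bins higher and 114 had all bins lower. Within a gene the median SD of the bin log2 ratios was 1.84, so a single bin ratio is not a measure of its gene's abundance in these libraries.

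**Figure D2:**
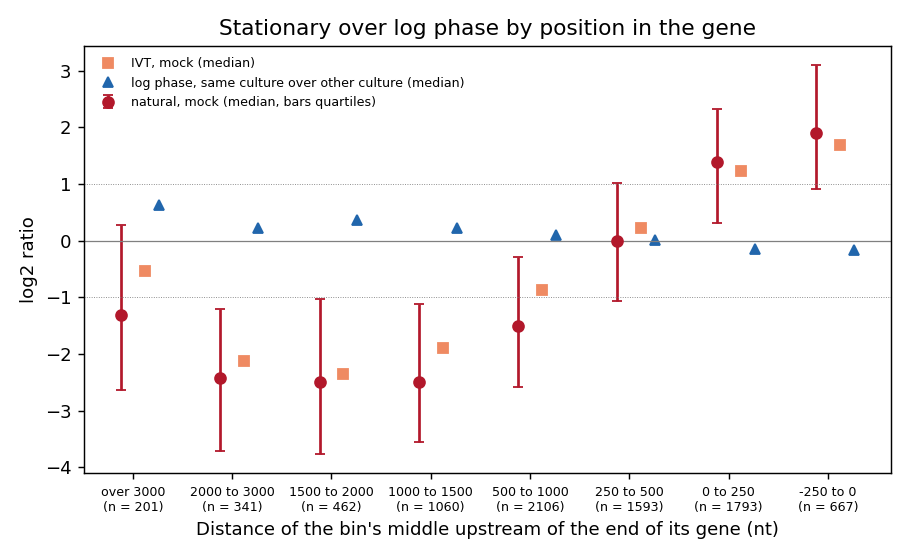
Log2 ratio of bins by the distance of their middle upstream of the end of their gene (nt; negative, downstream). Circles are natural mock medians of stationary over log phase with quartiles as bars, squares are IVT mock medians, and triangles are the median ratio of both log-phase natural mock libraries. The stationary over log medians run from 1.89 past the gene end to −2.49 at 1000 to 1500 nt upstream, and the triangles stay between −0.17 and 0.63.

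Summed over whole genes, 4992 gene entries had 50 or more reads, where genes that shared a large part of their reads at recurring positions were joined into 1 entry. Copies with nearly equal but not identical counts, many tRNA genes among them, stayed separate. Of these, 1171 (23.5%) were at least 2-fold higher in stationary phase and 1144 (22.9%) were at least 2-fold lower, with a median log2 ratio of 0.04 and an SD of 1.59. In IVT RNA 1149 (23%) were higher and 886 (17.7%) lower, and 843 entries were higher (16.9%) and 709 lower (14.2%) in both kinds of RNA. Opposite directions were seen in 24 entries (0.481%), 3 higher in natural RNA (0.0601%) and 21 lower (0.421%), and 20 of them were tRNA genes, several with the same few reads. In +CMCT natural RNA 950 entries were higher (19%) and 1369 lower (27.4%), and in +CMCT IVT RNA 1163 (23.3%) and 906 (18.1%). All 4 library pairs gave 672 entries higher (13.5%) and 617 lower (12.4%). Past 8-fold lay 178 entries higher in stationary phase (3.57%) and 135 lower (2.7%). Counted over the last 300 nt, 1106 of 4517 entries were higher (24.5%) and 1161 lower (25.7%). Whole-gene and last-300-nt ratios had a Spearman correlation of 0.83 over genes. Among protein-coding genes, length mattered for both ratios. The whole-gene median was 0.83 for genes under 500 nt and −0.16 for those of 1000 to 2000 nt. The median over the last 300 nt was −0.29 for genes under 500 nt and 0.61 for those over 2000 nt.

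**Figure D3:**
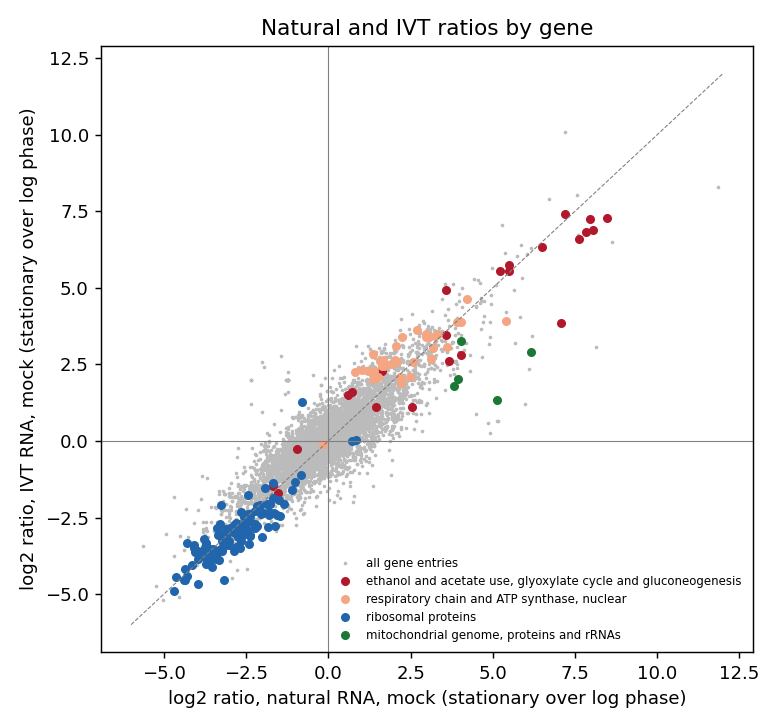
Log2 ratio of stationary over log phase for 4992 gene entries, natural RNA (x axis) against IVT RNA (y axis), mock libraries, with the line of equality dashed. Genes of ethanol and acetate use lie at upper right and ribosomal protein genes at lower left, near the line; the mitochondrially encoded genes lie below it.

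The genes named here had the highest ratios among those past 2-fold in the same direction in IVT and +CMCT RNA, without overlap or repeats. They were genes of growth on ethanol, acetate and lactate and a few named for stationary phase. SPG4, a gene needed for survival in stationary phase, had 554 reads in the stationary-phase library and 0 in the log-phase library. By the exact interval, which covers counting error only, it was at least 495-fold higher, a log2 ratio of 8.95. Against the 3 reads that a count of 0 allows it was 611-fold higher. The +CMCT natural libraries gave it 628 and 1.70 RPM, a log2 ratio of 8.48, and IVT RNA gave 8.28, both below that bound. Against the log-phase library of the other culture, where SPG4 had 16 reads, the log2 ratio was 5.87. SFC1, the mitochondrial succinate-fumarate carrier, had 1436 RPM in stationary phase and 3.92 in log phase, 354-fold higher (interval 218 to 671). MLS1, the malate synthase of the glyoxylate cycle, had 2981 and 11.2 RPM, 263-fold higher (195 to 373). In IVT RNA SFC1 had 1095 RPM in stationary phase and 6.76 in log phase, and MLS1 had 2682 and 22.4. The shared direction in IVT RNA was a condition of the choice of these genes, so it is no separate check. FBP1, the fructose-1,6-bisphosphatase of gluconeogenesis, had 2424 RPM in stationary phase and 9.53 in log phase, 251-fold higher (182 to 368). JEN1, the lactate and pyruvate permease, had 3172 and 13.7, 229-fold higher (174 to 313). IDP2, the cytosolic NADP-dependent isocitrate dehydrogenase, had 1252 and 8.41, 147-fold higher (104 to 222).

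Further genes at the top were counted from few log-phase reads and have wide intervals. RGI2, a gene of respiratory growth, had 298 reads in stationary phase and 2 in log phase, 395-fold higher (135 to 4090). ADY2, an acetate transporter, had 207 and 3 reads (7.62, interval 6.27 to 10.12), and SPG1 had 86 and 1 (7.58, interval 5.64 to 13.47). COX26, a small subunit of cytochrome c oxidase, had 144 and 2 reads (7.58, interval 6.02 to 10.96). SIP4, an activator of gluconeogenic genes, had 182 and 4 reads (7.07, interval 5.85 to 9.13), and DPA10 had 155 and 3 (7.20, interval 5.84 to 9.71). The 12 genes had last-300-nt ratios of 5.95 to 10.54 on the log2 scale after centring. SPG4, RGI2, ADY2 and SIP4 had 0 log-phase reads in this window, so the size of their ratios depends on the 0.5 added reads. For SPG4, the highest, the lower bound of the interval was 7.65 and there was no upper bound. SPG1, COX26 and DPA10 are shorter than 300 nt, so for them this window holds the same reads.

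**Figure D4:**
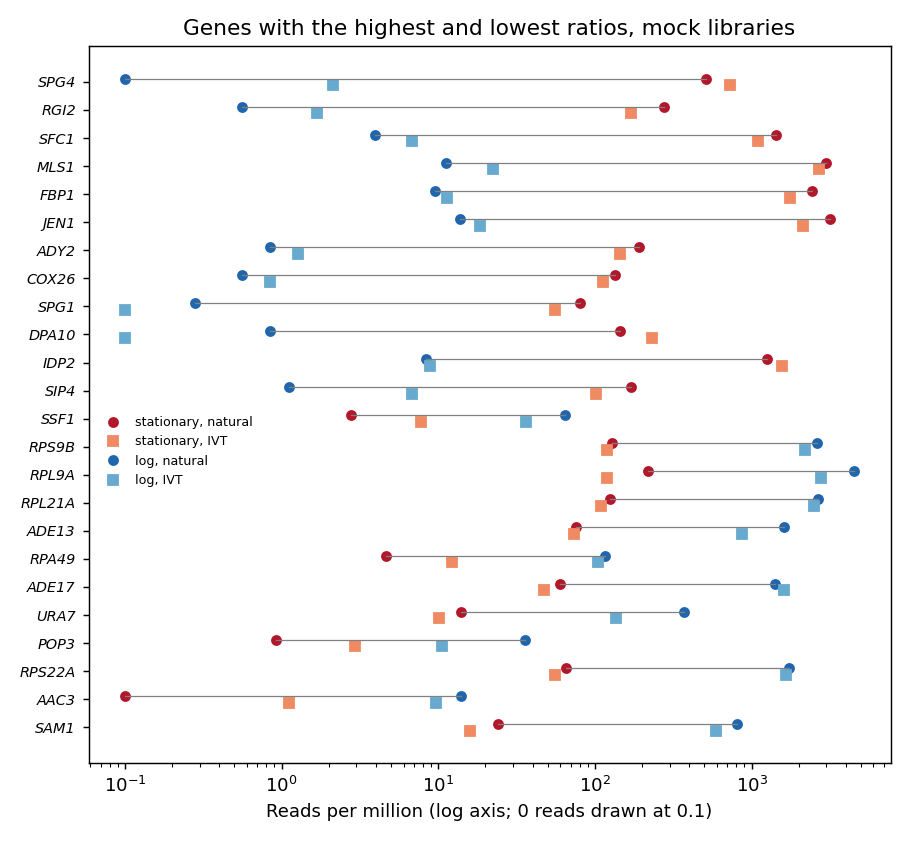
RPM (log axis, 0 reads drawn at 0.1) in the 4 mock libraries for the 12 genes with the highest and the 12 with the lowest natural log2 ratio that passed 2-fold in the same direction in IVT and +CMCT RNA; the grey line joins the natural values. The stationary-phase points of the upper 12 genes lie above 50 RPM, and the log-phase points lie at or below 22.4.

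The list of ethanol and acetate use, the glyoxylate cycle and gluconeogenesis had 23 measured members. Of these, 18 were at least 2-fold higher in stationary phase and 2 were lower, with a median log2 ratio of 4.03 in natural RNA and 3.86 in IVT RNA, against 0.04 over all genes. CIT2, the peroxisomal citrate synthase, had 3060 RPM in stationary phase and 82.7 in log phase, a log2 ratio of 5.21. Against the log-phase library of the other culture, which held 2175 RPM of it, its ratio was 0.49. ALD6, the cytosolic aldehyde dehydrogenase, was at 1953 and 714 RPM, a smaller difference of 1.45 on the log2 scale. The entry that joins ADH2, the alcohol dehydrogenase that oxidises ethanol, with ADH1, the enzyme that forms it, had 8181 RPM in stationary phase and 23485 in log phase, and these genes were counted as 1 entry because a share of at least 0.5 of the reads of 1 of them lay at positions whose counts recur in the other. This joined entry, at −1.52, was 1 of the 2 lower members, and it gives no direction for ADH2 alone. The lowest member was ATO3, with 12 reads in stationary phase and 133 in log phase, a log2 ratio of −1.69. Over the last 300 nt, 19 of 22 members were higher and 1 lower.

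Genes of respiration were higher together. Of 16 measured members of the tricarboxylic acid cycle, 13 were at least 2-fold higher in stationary phase and 1 was lower, with medians of 1.80 in natural and 2.46 in IVT RNA. CIT1, the mitochondrial citrate synthase, had 2303 RPM in stationary phase and 211 in log phase, and SDH4, a membrane subunit of succinate dehydrogenase, had 681 and 41.2. Of 34 nuclear genes of the respiratory chain and ATP synthase, 32 were higher and 0 lower, with a median of 2.20, against 23.5% and 22.9% of all genes. These genes are short, with a median length of 446 nt, and of all protein-coding genes under 500 nt 45.0% were higher, with a median of 0.83. In the last 300 nt 26 of the 34 were higher and 0 lower, with a median of 1.67. ATP2, the β subunit of the ATP synthase, had 2381 RPM in stationary phase and 526 in log phase. CYC7, the isoform of cytochrome c made at low oxygen, had the highest ratio in this list, which does not hold COX26, at 5.40 from 95 and 7 reads. COX5B, likewise the low-oxygen isoform of its subunit, did not differ by 2-fold, at 121 and 136 RPM.

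The mitochondrial chromosome took 1.92% of the stationary-phase natural reads, against 0.0384% of the log-phase natural reads. Natural RNA had been selected on poly(A), and how mitochondrial RNA passed that selection was not tested. The shares describe the selected RNA and are no measure of the mitochondrial RNA content of the cells. Of this chromosome's 31 member bins 30 were at least 2-fold higher and 0 lower, with a median log2 ratio of 5.45 in natural RNA and 2.34 in IVT RNA. Members needed 50 reads over both natural libraries, which bins of this chromosome could reach through stationary-phase reads alone. The count of higher bins and the natural median are thus partly set by that filter. Of the 10 listed mitochondrial genes, 5 had enough reads to be measured. The large mitochondrial rRNA, 21S_RRNA, had 15551 RPM in stationary phase and 219 in log phase in natural RNA, a log2 ratio of 6.15 (6.05 to 6.26). In IVT RNA it had 336 and 44.8 RPM, a log2 ratio of 2.90. COX1, subunit I of cytochrome c oxidase, had 1779 and 50.4 RPM in natural RNA and 436 and 172 in IVT RNA. Both genes overlap other annotated genes, and reads were counted without strand. The direction was shared by both kinds of RNA, and the size was much larger in natural RNA.

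Lists for fat and carbohydrate stores were also mostly higher. Of 11 measured genes of fatty acid β-oxidation and the peroxisome, 7 were at least 2-fold higher in stationary phase and 0 lower (median 1.70 in natural RNA, 0.68 in IVT RNA). CAT2, a carnitine acetyltransferase, had 459 RPM in stationary phase and 10.1 in log phase. Of 16 genes of trehalose and glycogen metabolism, 10 were higher and 0 lower, with a median of 1.32. GLC3, the glycogen branching enzyme, had 604 and 56.0 RPM, while TPS1, the trehalose-6-phosphate synthase, had 215 and 222. Of 20 genes of autophagy and vacuolar proteolysis, 12 were higher and 1 lower (median 1.15). ATG39, a receptor for autophagy of the nuclear envelope, had 74 reads in stationary phase and 12 in log phase. PEP4, the vacuolar proteinase A, had 439 and 354 RPM and stayed within 2-fold.

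Of 33 measured stationary-phase and stress-responsive genes, 24 were at least 2-fold higher and 2 lower, with a median of 2.35. HOR7, a small membrane protein gene, had 3250 RPM in stationary phase and 806 in log phase, and UBI4, the polyubiquitin gene, had 1090 and 295. MRH1, a plasma membrane protein gene, went the other way at 50.1 and 706 RPM. These values depend on the log-phase library: set against the library of the other culture, which held the high HSP26, the median of this list was −0.50.

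Chaperones had members in both directions. Of 27 measured heat shock proteins and chaperones, 11 were at least 2-fold higher in stationary phase and 5 were lower. Over all genes 23.5% were higher and 22.9% lower, so the lower members were no more than that share. In IVT RNA 16 were higher and 3 lower. The list's natural median was 0.79, and it was −2.01 against the log-phase library of the other culture. SSA3, a stress-induced cytosolic Hsp70, had 466 RPM in stationary phase and 19.6 in log phase, a log2 ratio of 4.56 (4.21 to 4.95). The ribosome-bound Hsp70 SSB1 was lower, at 441 and 4322 RPM, as was SSB2, at 538 and 4049, and these near-identical genes share reads. The entry joining SSA1 and SSA2, the Hsp70 genes of growing cells, had 1784 and 3663 RPM. Of 27 oxidative stress genes 13 were higher and 6 lower, and the lower ones were near the 22.9% over all genes. CTA1, the peroxisomal catalase, had 80.7 RPM in stationary phase and 9.25 in log phase, whereas AHP1, a thiol peroxidase, had 362 and 1085. After centring, the last 300 nt gave 5 genes of this list higher and 7 lower, where 24.5% and 25.7% of all genes were.

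Ribosomal protein genes were lower almost without exception. Of 127 measured entries, 123 were at least 2-fold lower in stationary phase and 0 were higher, with a median log2 ratio of −2.86 in natural RNA and −3.02 in IVT RNA. Together they took 32862 RPM in stationary phase and 231423 in log phase, and 32830 and 220131 in IVT RNA. RPL2B had 311 and 7675 RPM, and RPS31, which is made as a fusion to ubiquitin, had 1295 and 7521. The lowest member was RPS22A, at 65.8 and 1731 RPM, a log2 ratio of −4.71 (−5.08 to −4.38). The entry with the highest ratio was RPL41B, a very short gene, at 632 and 354 RPM. Over the last 300 nt 117 of 120 entries were lower, with a median of −3.88. Against the log-phase library of the other culture, in which these genes summed to 32619 RPM, the list's median was −0.20.

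The translation factors and ribosome biogenesis genes were lower too. Of 27 translation factor entries, 20 were at least 2-fold lower and 0 higher (median −1.73). YEF3, elongation factor 3, had 354 RPM in stationary phase and 4631 in log phase, and the entry joining TEF1 and TEF2, which encode elongation factor 1α, had 5936 and 27023. Of 33 ribosome biogenesis genes, 25 were lower and 0 higher (median −2.00). CBF5, the pseudouridine synthase of H/ACA snoRNPs, had 83.4 and 684 RPM, and NOP56, a core protein of C/D snoRNPs, had 68.6 and 612. DBP2, an RNA helicase, had 382 and 367 RPM over the whole gene but a ratio of −3.57 over its last 300 nt.

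Glycolytic genes were among the most abundant in both states and lower in stationary phase. Of 16 measured members, 12 were at least 2-fold lower and 2 higher, with a median of −1.97. TDH3, glyceraldehyde-3-phosphate dehydrogenase, had 5481 RPM in stationary phase and 27776 in log phase; ENO2, an enolase, had 2079 and 19159, and PGK1, phosphoglycerate kinase, had 2469 and 16860. PYK2, the pyruvate kinase isoform of low glycolytic flux, was higher instead, at 108 and 42.6. PDC1, the main pyruvate decarboxylase, had 1464 and 10600 RPM. Its paralog PDC5 had 51.0 and 388 over the whole gene, a log2 ratio of −2.92, with −4.48 in IVT RNA. Over the last 300 nt its natural ratio was 2.37 after centring, from only 31 and 8 reads, and its IVT ratio −0.20. The reversed direction at its end thus rests on few reads and was not seen in IVT RNA. Of 10 measured entries for hexose transporters 4 were higher and 1 lower, against 23.5% and 22.9% of all genes. HXT1, the low-affinity transporter of high glucose, had 42.6 and 137 RPM. The entry joining the high-affinity transporters HXT6 and HXT7 had 1492 and 595 RPM. The highest ratio in this list belonged to STL1, a glycerol transporter, with 104 reads in stationary phase and 11 in log phase.

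Biosynthetic lists were mostly lower. Of 15 purine synthesis genes, 13 were at least 2-fold lower in stationary phase and 0 higher (median −2.81). ADE17, which acts in the last steps of inosine monophosphate synthesis, had 60.3 RPM in stationary phase and 1420 in log phase, 23.4-fold lower, and ADE13, adenylosuccinate lyase, had 76.0 and 1607. IMD2, an inosine monophosphate dehydrogenase with close relatives that share reads, was lowest at 6 reads in stationary phase and 1076 in log phase, a log2 ratio of −5.65. Of 54 genes of amino acid and one-carbon synthesis, 39 were lower and 5 higher (median −1.94). SHM2, the cytosolic serine hydroxymethyltransferase, had 153 and 2464 RPM, and SAM1, an S-adenosylmethionine synthetase, had 24.1 and 808, a log2 ratio of −5.04 (−5.68 to −4.51). ARG3, ornithine carbamoyltransferase, was the exception at the top of the list with 145 reads in stationary phase and 8 in log phase. Of 23 ergosterol genes, 16 were lower and 0 higher (median −1.52). ERG1, squalene epoxidase, had 49.1 and 358 RPM.

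Other lists had smaller or mixed differences. Of 32 proteasome genes 25 stayed within 2-fold, and RPN4, the transcription factor of proteasome genes, was the 1 higher member at 293 RPM in stationary phase and 30.5 in log phase. The list's median was −0.60 in natural RNA and 0.22 in IVT RNA. Of 10 histone genes 3 were lower and 0 higher over whole genes, where 22.9% of all genes were lower. Over the last 300 nt 9 were lower after centring. The list's median length was 399 nt, and protein-coding genes under 500 nt had a median of −0.29 there. HTA2, an H2A gene, had 231 and 1009 RPM, and HHT1, an H3 gene, 1125 and 1587. Of 22 cell wall protein genes 9 were lower and 2 higher: EXG1, an exo-β-glucanase, had 19.5 and 368 RPM, and SPI1, a wall protein gene of stationary phase, 374 and 48.5. Of 29 genes of protein kinase A, TOR and Snf1 signalling 9 were higher and 4 lower, not far from the 23.5% and 22.9% over all genes. IRA2, which turns Ras off, had 653 and 70.9 RPM, while RAS1 had 7.42 and 43.4 and RAS2 had 77.9 and 218.

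**Figure D5:**
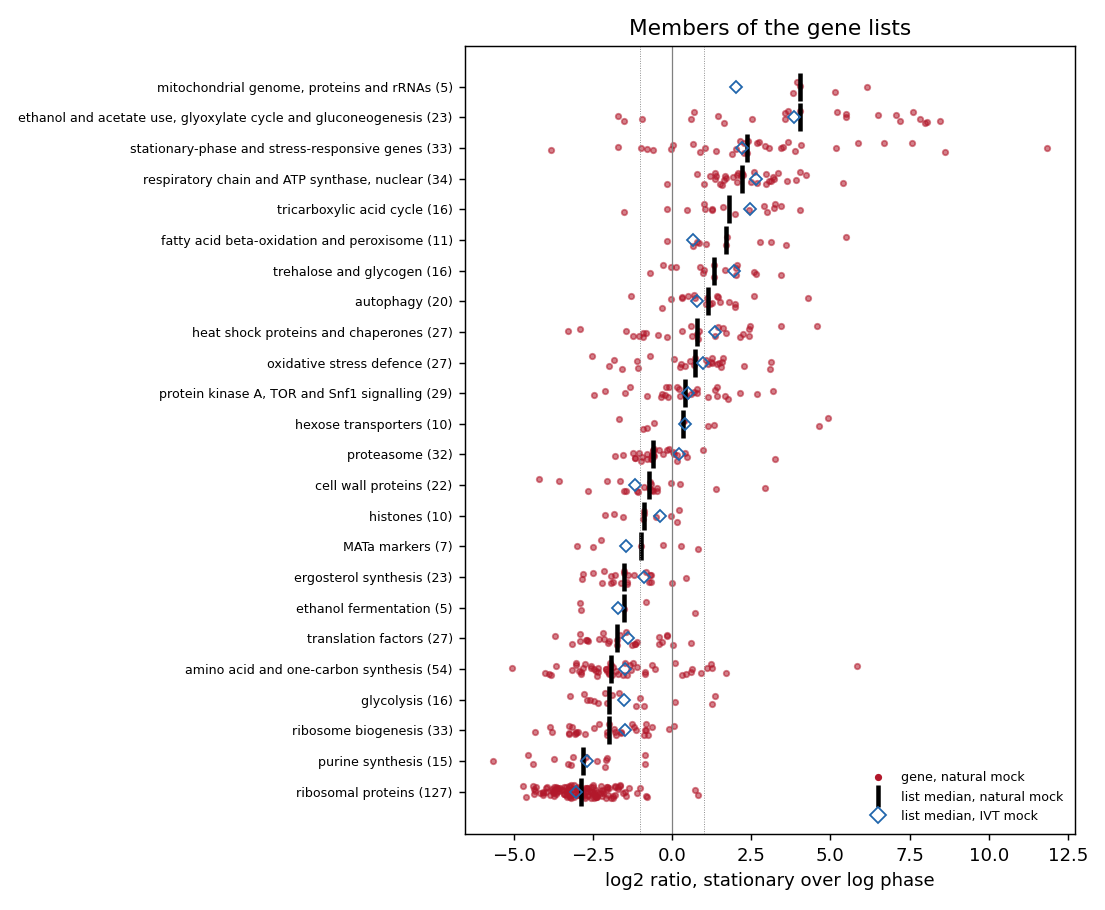
Log2 ratio of stationary over log phase for each measured member of the lists (points, natural mock), with the natural median as a black bar and the IVT median as a diamond; the number of members is in brackets and dotted lines mark 2-fold. Ribosomal protein genes lie almost wholly left of the lower line, and the mitochondrially encoded genes and those of ethanol and acetate use have the highest medians, 4.04 and 4.03.

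The 12 lowest genes that passed 2-fold in IVT and +CMCT RNA too and were free of overlap and repeats held 4 ribosomal protein genes, besides SAM1, ADE13 and ADE17 described above. URA7, a CTP synthase, had 13.9 RPM in stationary phase and 369 in log phase, a log2 ratio of −4.68 (−5.57 to −4.00). RPA49, a subunit of RNA polymerase I, had 5 and 415 reads. SSF1, a ribosome assembly factor with a close paralog, had 3 and 231 reads, a log2 ratio of −4.32 (−6.83 to −2.98). RPL21A had 125 and 2638 RPM, RPL9A 219 and 4510, and RPS9B 128 and 2614. POP3, a subunit of RNase P and RNase MRP, had 1 and 127 reads, a log2 ratio of −4.68 (−10.58 to −2.76). AAC3, an ADP/ATP carrier used without oxygen, had 0 reads in stationary phase and 50 in log phase, at least 3.95-fold lower by the exact interval (5.04-fold against 3 reads). The 10 genes of this group with enough reads in their last 300 nt had centred log2 ratios of −3.61 to −6.42 there.

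RNAs that are not mRNAs were measured although the RNA was selected on oligo(dT). Of 35 snoRNA entries, 23 were at least 2-fold higher in stationary phase and 3 lower, with a median of 1.37 in natural and 0.80 in IVT RNA. All snoRNA genes together took 2838 RPM in stationary phase and 973 in log phase. LSR1, the U2 spliceosomal RNA, had 386 and 44.8 RPM, and SNR19, the U1 RNA, had 69 and 83 reads, a log2 ratio of 1.46 (0.98 to 1.94). Of 49 tRNA entries, 2 were higher and 25 lower, with a median of −1.12 in natural mock RNA. In natural +CMCT RNA 43 were higher and 0 lower, with a median of 1.92, so mock and +CMCT libraries of the same RNA went opposite ways and no direction is given for this class. In IVT RNA the median was 0.78, from few reads, and all tRNA genes together took 310 RPM in stationary phase and 263 in log phase. The 49 entries hold 32 distinct pairs of natural read counts, since many near-identical copies were not joined.

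Sequences present at several loci held much of the stationary-phase data. As listed, 72.5% of stationary-phase natural reads outside the rDNA window lay at positions whose counts recur elsewhere, against 35.4% in log phase, and 58.2% and 41.8% in IVT RNA. With each such position taken once, the shares of the bin totals were 19.3% in stationary phase and 9.03% in log phase. The largest joined entry, of 68 genes headed by YAR009C, had 71410 RPM in stationary phase and 22754 in log phase in natural RNA, a log2 ratio of 1.65, and 36808 and 32224 in IVT RNA, a log2 ratio of 0.19. Of the bins described above with their middle just past the end of their gene, 73.2% were higher, with a median of 1.89. Outside annotated genes, 231 of 298 bins were at least 2-fold higher and 17 lower, with a median of 2.49, where 34.4% and 36.2% of all bins were. The 19 bins of these with at least 500 reads and an 8-fold difference were all higher. The most abundant of them lay at chr1:160001-160500 in the deposited coordinates, with 20666 RPM in stationary phase and 941 in log phase. Bins at chr1:183001-183500, chr10:354501-355000, chr12:818001-818500 and chr15:980001-980500 share a highest position with 1680 stationary-phase and 205 log-phase reads, close to the 1688 and 205 of the first, and are not independent of each other.

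Both libraries labelled log phase gave the only spread between replicates, and they were used together in a test against the single stationary-phase library. With edgeR's quasi-likelihood test, 7 of 5282 gene entries passed a Benjamini-Hochberg adjusted p of 0.05, all higher in stationary phase (0.133%), and 754 had an unadjusted p under 0.05. RGI2, ADY2 and SPG1 were among them, with adjusted p-values of 0.0366, 0.0366 and 0.0362. The others, named after their values were seen, were YIG1, YMR206W, and ICS3 and BI3, which overlap other genes. RGI2 had 276 RPM in stationary phase, and 0.56 and 2.13 in the log-phase libraries. Over bins 0 of 13155 passed in either direction (lowest adjusted p 0.0529) and 4832 had an unadjusted p under 0.05. DESeq2 called 427 gene entries, 243 higher (4.6%) and 184 lower (3.48%), and 2850 bins, 1572 higher (11.9%) and 1278 lower (9.71%). The log-phase libraries differed strongly in stress and ribosomal genes, as described for HSP26, so the spread in this test is wide, and the lone stationary-phase library is assumed to vary as they do.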

How the data were processed

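The authors aligned reads to the yeast genome (build sacCer3) with Bowtie 0.12.5, per the labels' processing notes, with at most 2 mismatches. They deposited raw counts of reads per position, without strand, for 16 libraries. By the paper's methods, a read with several loci was placed at 1 of them at random. The deposited counts nevertheless recur: outside the rDNA window, 241401 positions of at least 20 reads held only 30918 distinct sets of counts. How reads with several loci were counted was not tested. Members and gene lists were chosen with earlier results of these data known. Positions with equal counts in all 16 libraries and at least 20 reads were taken once. Bins with a share above 0.5 of their reads counted at another copy were dropped (704 bins). Genes came from RefSeq R64 intervals. Deposited positions lined up with R64 within 120 nt in 119 of 125 windows of the nuclear chromosomes, but not in 5 windows of chromosome 11 past position 200000, so 247 genes there were left out, with 42 in the rDNA window (positions 450000 to 492000). Genes of the remaining window, on chromosome 12 from position 900001, were kept: a share of 0.691 of its reads lay in coding genes unshifted and 0.698 at the best shift. No R64 coordinate is printed. Strand was read from systematic names. Log2 ratios used 0.5 added reads. Named genes were the 12 highest and 12 lowest that passed 2-fold in IVT and +CMCT RNA without overlap or repeats, and from each list the 3 with most reads, the highest and the lowest. 1 gene under this rule is not reported here. HSP26, LSR1 and SNR19 were named after their values were seen. Tests used edgeR 4.0.16 and DESeq2 1.42.0 in R 4.3.3, with counts summed in Python 3.11.15. The 2 log-phase libraries came from separate cultures, and p-values measure only the spread between them.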

Additional observations from a re-analysis of the deposited data

Results flagged for a closer look

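The natural mock library labelled log phase from the culture that was later heat shocked carried high heat shock transcripts, although it is a control by its label. HSP26 stood at 16013 RPM in it and SSA4, a stress-induced Hsp70, at 4524, against 1047 and 334 in the stationary-phase library and 195 and 102 in the log-phase library of the stationary culture. In the library labelled heat shock the same genes had 201 and 106 RPM. The +CMCT natural library of the same label had 16425 RPM of HSP26, its IVT +CMCT library 28654 and its IVT mock library 229. Whether labels were exchanged was not tested.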

How the results depend on the processing

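The counts of bins and genes past 2-fold stayed within 1.5 times under both other scalings, 5 added reads, leaving out the position with most reads or the mitochondrial chromosome, 250-nt and 1000-nt bins, the +CMCT, IVT or other log-phase library, and, chosen after seeing the data, a repeat threshold of 50 reads and the last 300 nt of each gene. With every listed position counted, there were 1869 bins at least 2-fold higher in stationary phase and 6048 bins at least 2-fold lower in stationary phase. The same setting gave 339 genes at least 2-fold higher in stationary phase and 3027 genes at least 2-fold lower in stationary phase, and the median gene moved by −1.31 on the log2 scale. A minimum of 20 reads gave 5380 bins higher and 6175 lower, since more bins were kept. A minimum of 200 reads gave 957 and 1319, and 490 genes higher.

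In edgeR, bins called were 208 with RLE factors and 6145 with +CMCT libraries, and 2850 in DESeq2. Genes called were 0 with RLE factors, without a filter or with every position counted, 32 with +CMCT libraries, 39 over the last 300 nt and 427 in DESeq2. These counts come from unlike numbers tested: 13155 bins and 5282 genes with RLE factors, and 20370 and 5584 with +CMCT libraries. Genes tested were 5897 without a filter, 5496 with every position counted and 3795 over the last 300 nt. DESeq2 gave an adjusted p to 9839 bins and 4155 genes. Leaving out a log-phase library leaves 1 against 1 with no residual degrees of freedom, so no such test was run. No paired analysis was possible because the 1 stationary-phase library has a log-phase partner from its own culture and no other pair exists.

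Of 17 list medians past 2-fold, 5 changed sign somewhere. With every position counted, trehalose and glycogen gave −5.46e-05 and autophagy −0.17. Against the other log-phase library, the stress-responsive list gave −0.50, autophagy −0.024 and the deletion markers 0.30. Over the last 300 nt ethanol fermentation gave 0.12. Of 97 named genes past 2-fold, 17 changed sign. With every position counted, ACO1 gave −0.040, ATP5 −0.30, CPS1 −0.24, HXT7/HXT6 −0.43 and LPD1 −0.29. RPN2 gave 0.19 in IVT RNA. Against the other log-phase library, BAR1 gave 1.12, HIS3 0.30, HOR7 −0.52, HTA2 0.22, NTH1 −0.24, RPL1A/RPL1B 0.45, RPS31 1.32, STE2 0.58 and UBI4 −0.50. Over the last 300 nt ATG13 gave 0.24 and PDC5 2.37. Other named genes kept their sign but fell within 2-fold against the other log-phase library, among them CIT2 (0.49), CYC7 (0.39), SSA3 (0.37) and SPI1 (0.26). Others stayed far past 2-fold there, such as SFC1 (7.75) and MLS1 (7.26). The causes were not tested. Depth limits single bins: the median interval of a bin's log2 ratio spans 0.72 to either side.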
